A study of Rattus norvegicus with 2 samples.

Results

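Lipid droplets store triacylglycerol, and the genes described here code for the proteins that coat the droplet and for the enzymes and regulators that break its lipid down. The group holds 9 genes of 14217 on the array, namely the perilipins Plin1, Plin2, Plin3 and Plin4, the lipases Pnpla2, Lipe and Mgll, and the lipase regulators Abhd5 and G0s2. All 16 probe sets annotated to one of these genes alone were taken. The genes were chosen by function and with the signals of these arrays known, since Mgll has the highest ratio of any gene measured in both arrays. The ratios below therefore describe the group, and none of them is a test. Both arrays hold RNA from AT6.1, an established rat prostate cancer cell line. The first array is from clone 7, transfected with the expression vector pcDNA3 with an insert of Ndrg-1 (N-myc downstream regulated gene-1), a gene described as a metastasis suppressor. The second is from clone 9, transfected with pcDNA3 without an insert. Both clones were kept in medium with 10% fetal calf serum under 0.3 mg/mL G418, so drug selection is common to the groups. Each group is 1 clone and 1 array without replicates, so clone, culture and array cannot be told apart from the insert, and no p-value is given. Lower signal from fewer expressing cells and from less RNA per cell also cannot be told apart in such bulk RNA.

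Triacylglycerol is broken down stepwise. Pnpla2, also called ATGL, removes the first fatty acid, Lipe, the hormone-sensitive lipase, removes the next from diacylglycerol, and Mgll splits the remaining monoacylglycerol into glycerol and a fatty acid. Abhd5 activates Pnpla2 and G0s2 inhibits it, while the perilipins cover the droplet and control access to its surface. Plin1 and Plin4 are known mainly from fat cells, whereas Plin2 and Plin3 are found in most cell types.

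Promoter sequence is shown for the 4 genes whose signals in the Ndrg-1 clone exceeded those in the vector clone by 2-fold or more, to set their upstream regions side by side. Each line is the 250 bases before the annotated start as RefSeq annotates it on rat assembly GRCr8, 5′ to 3′ along the gene's strand. For Plin4, which has 5 listed starts, the first listed was used. Capitals mark every match, on either strand, to one of 6 motifs, which were the PPAR response element (the half-site AGGTCA repeated in the same direction after 1 base of any kind), the half-site alone, the E-box CACGTG, the GC box GGGCGG, the TATA box TATAAA and the CCAAT box CCAAT. The half-site lies within the full element, so their matches can overlap.
Mgll, chr4:122749186-122749435, plus strand: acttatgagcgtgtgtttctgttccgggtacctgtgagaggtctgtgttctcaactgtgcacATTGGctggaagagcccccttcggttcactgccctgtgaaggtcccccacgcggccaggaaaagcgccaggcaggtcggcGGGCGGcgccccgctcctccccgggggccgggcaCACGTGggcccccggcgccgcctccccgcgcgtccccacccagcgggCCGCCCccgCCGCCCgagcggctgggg
Plin1, chr1:143086149-143086398, minus strand: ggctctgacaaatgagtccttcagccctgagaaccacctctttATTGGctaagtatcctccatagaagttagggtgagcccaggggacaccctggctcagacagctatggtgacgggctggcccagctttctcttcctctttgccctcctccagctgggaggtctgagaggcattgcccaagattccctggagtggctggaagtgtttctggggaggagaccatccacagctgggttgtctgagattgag
Plin4, chr9:1025250-1025499, minus strand: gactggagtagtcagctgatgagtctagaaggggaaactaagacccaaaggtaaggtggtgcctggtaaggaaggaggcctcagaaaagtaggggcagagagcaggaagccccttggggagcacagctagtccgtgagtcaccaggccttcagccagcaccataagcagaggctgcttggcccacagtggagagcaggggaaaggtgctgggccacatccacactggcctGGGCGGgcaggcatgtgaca
G0s2, chr13:107335949-107336198, minus strand: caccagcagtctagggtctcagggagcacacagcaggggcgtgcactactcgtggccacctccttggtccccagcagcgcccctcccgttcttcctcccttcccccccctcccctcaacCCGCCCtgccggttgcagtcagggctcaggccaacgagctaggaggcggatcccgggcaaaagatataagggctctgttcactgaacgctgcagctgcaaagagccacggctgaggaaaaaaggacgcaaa

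The 4 windows did not carry a common motif. Mgll had an E-box starting 74 bases before the start, 3 GC boxes and a CCAAT box in reverse orientation, in a window of 72.4% G and C. Plin1 had a reverse CCAAT box, and Plin4 and G0s2 had 1 GC box each. No window held the PPAR response element, its half-site or TATAAA in exact letters. Among 27457 rat genes with such a window, 0.0546% held the full element, 13.7% the half-site, 5.79% the E-box, 32.4% the GC box, 13.1% TATAAA and 34.3% CCAAT. The median G and C content was 52.0%. Of the other members, 4 had a window in the table. Plin2 shared the E-box with Mgll, at 67 bases before its start, and Abhd5 alone held the half-site. These matches describe letters in a short window and are not evidence of binding.

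Of the 9 genes, Mgll, Plin1, G0s2 and Plin4 were higher in the Ndrg-1 clone by 2-fold or more, 4 in all, and 0 were lower by as much. Of 9182 measured genes on the array, 3.13% differed by 2-fold or more, made up of 1.62% that were higher in the Ndrg-1 clone and 1.5% that were lower. Since the group was chosen with these values known, nothing is read from that contrast. A gene counted as measured if its signal exceeded the floor of 31.0, the median of all signals, in at least 1 array. All 9 genes were measured, 8 of them in both arrays. Where a gene had several probe sets, the one brightest on average (mean log2 signal) stands for it. The group was divided: 4 genes lay at log2 ratios of 1.16 or more and 5 between -0.34 and -0.05, with a median of -0.05. The median log2 ratio of all measured genes was 0.0029. The only error these arrays give is the spread among probe sets that share a gene and exceed the floor in both arrays. Its SD was 0.23 in log2 ratio (5336 probe sets, 2296 genes). The SD was 0.28 among the genes dimmest on average, with mean signals up to 132, and 0.18 among those above 271. It leaves out variation between clones, cultures and arrays.

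**Figure D1:**
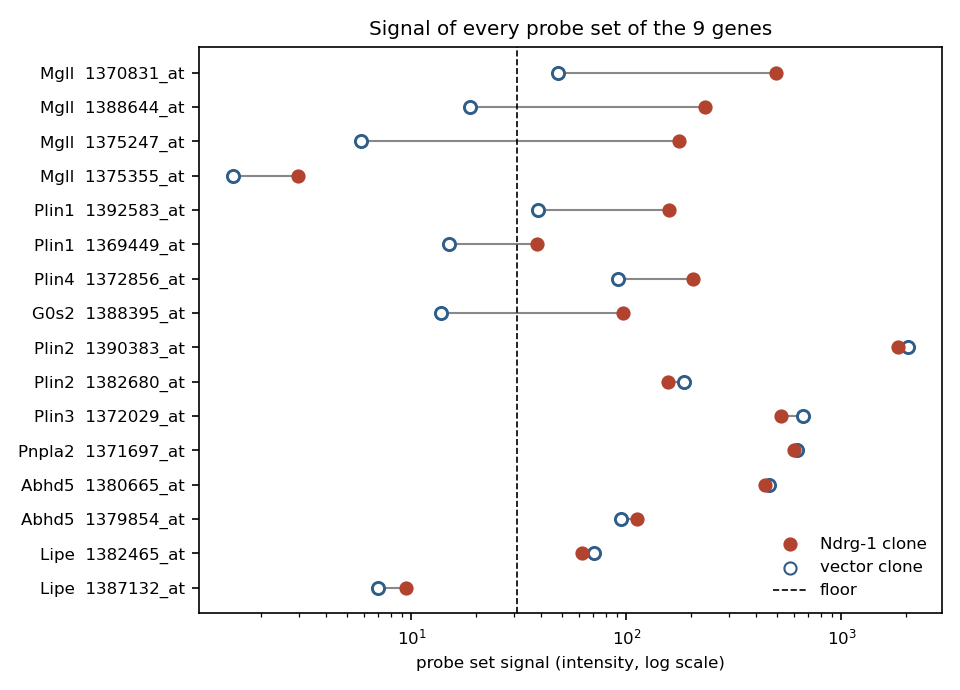
Signal of each of the 16 probe sets in the Ndrg-1 clone (filled) and the vector clone (open) on a log axis of intensity, with the floor of 31.0 as a dashed line. Signals are drawn without applying the floor. The Mgll, Plin1, Plin4 and G0s2 pairs lie further apart than the pairs of the other 5 genes. The closest of them is the Mgll probe set under the floor in both arrays, at 2.95 and 1.48.

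Mgll, the last enzyme of the pathway and also the main hydrolase of the endocannabinoid 2-arachidonoylglycerol in brain, differed most. Its brightest probe set, 1370831_at, gave a signal of 494.9 in the Ndrg-1 clone and 47.8 in the vector clone. The Ndrg-1 clone was thus 10.3-fold higher (log2 ratio 3.37), and this was the highest of 8552 genes measured in both arrays. Probe set 1388644_at read 232.9 against 18.8, and 1375247_at read 174.8 against 5.80. Both vector signals were under the floor, so these probe sets give lower bounds of 7.51-fold and 5.63-fold. The fourth, 1375355_at, was under the floor in both arrays at 2.95 and 1.48 and could not be compared. All 3 measurable probe sets thus went the same way, each well beyond 2 SD. The log2 ratio was 2.70 as the median over the 4 probe sets, where the one under the floor counts as 0, and at least 1.53 with a floor at the 75th percentile, above the vector signal. The other monoacylglycerol hydrolases did not follow Mgll. Abhd6, a membrane hydrolase with the same substrates, read 48.2 in the Ndrg-1 clone and 97.5 in the vector clone, 2.02-fold lower (log2 ratio -1.02). It fell short of 2-fold, at -0.47, when the arrays were scaled to the hybridisation spikes (bacterial control RNAs added before hybridisation), and at -0.82 with a pseudocount. As the median over its probe sets it was at -0.51, where a probe set under the floor in both arrays again counts as 0. Abhd12, a lysophospholipid and monoacylglycerol hydrolase, read 109.7 and 93.7, a log2 ratio of 0.23.

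The perilipins split by gene. Plin1, which coats droplets in fat cells and holds Abhd5 until hormones release it, read 157.2 in the Ndrg-1 clone and 38.8 in the vector clone on probe set 1392583_at. This was 4.05-fold higher (log2 ratio 2.02), rank 14 from the top of the 8552. Its other probe set, 1369449_at, read 38.4 against 15.0, just above and below the floor, and was at least 1.24-fold higher. The median over both was a log2 ratio of 1.16, which rests on that lower bound. Plin4, which coats small nascent droplets of fat cells, read 202.9 against 90.9 on its single probe set, 1372856_at. It was 2.23-fold higher (log2 ratio 1.16), rank 68 from the top, and had no second probe set to compare. Its ratio was 0.94 when scaled to the poly-A spikes, control RNAs added before labelling, and at least 0.24 with the floor at the 75th percentile, where the vector signal lay under the floor.

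Plin2 and Plin3, the perilipins of most cell types, did not reach 2-fold. Plin2 read 1838 in the Ndrg-1 clone and 2045 in the vector clone on probe set 1390383_at, a log2 ratio of -0.15. On 1382680_at it read 155.9 and 185.1, a log2 ratio of -0.25. Both Plin2 probe sets were thus slightly lower in the Ndrg-1 clone, by an amount near or under 1 SD. Plin3, which moves between the cytosol and new droplets, read 522.5 and 662.1 on 1372029_at, a log2 ratio of -0.34, which is 1.48 times the SD of all genes and 1.91 times that of the bright genes to which Plin3 belongs. Plin5, the perilipin of oxidative tissues, was not in the group and lay under the floor in both arrays at 1.07 and 6.50. In the RefSeq annotation Plin5 is next to Plin4 on chromosome 9, and Plin3 lies 9 protein-coding genes from Plin4.

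Of the lipase regulators Abhd5 and G0s2, only G0s2 differed by 2-fold or more. The inhibitor read 96.9 in the Ndrg-1 clone and 13.7 in the vector clone on probe set 1388395_at. The vector signal was under the floor, so the Ndrg-1 clone was at least 3.12-fold higher (log2 ratio at least 1.64). With the floor at the 25th percentile, which both signals exceeded, the log2 ratio was 2.82. G0s2 has a single probe set here.

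Its target and the activator of that target were close to equal. Pnpla2 read 600.1 and 619.3 on 1371697_at, a log2 ratio of -0.05. Abhd5 read 440.1 and 458.5 on 1380665_at, a log2 ratio of -0.06, and 111.8 and 94.3 on 1379854_at, a log2 ratio of 0.24. The Abhd5 probe sets thus had opposite signs, each within 1.06 SD of 0. Lipe read 61.9 and 70.5 on 1382465_at, a log2 ratio of -0.19, and its other probe set, 1387132_at, was under the floor in both arrays at 9.39 and 6.97. Across the 5 genes under 2-fold, the measured probe sets ranged from -0.34 to 0.24, all inside 2 SD (0.46 over all genes and 0.36 among bright ones). When the arrays were scaled to the hybridisation spikes the ratios of all 5 turned positive, from 0.20 for Plin3 to 0.50 for Pnpla2, and still did not reach 2-fold.

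**Figure D2:**
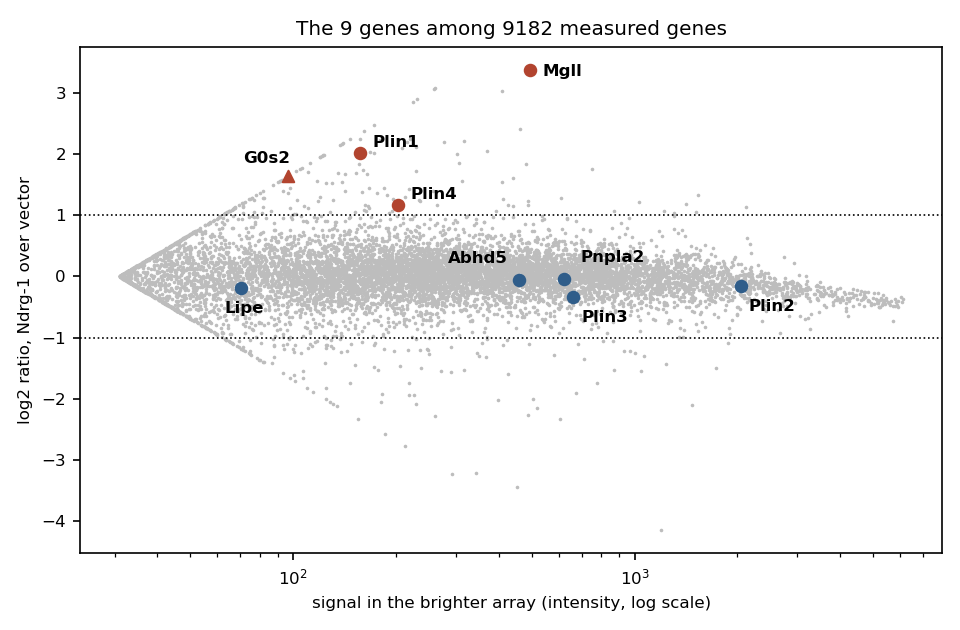
Log2 ratio of the Ndrg-1 over the vector clone against the signal in the brighter array (log axis) for 9182 measured genes (grey), with the 9 genes in red (at least 2-fold higher) or blue. Dotted lines mark 2-fold, and the triangle marks G0s2, a lower bound. Mgll lies at 3.37, above all other genes measured in both arrays, and Plin2, Plin3, Pnpla2, Lipe and Abhd5 lie inside the cloud.

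The share of genes past 2-fold depended on signal. Among 2482 genes whose brighter array read between 100 and 250, as for Plin1 and Plin4, 2.74% were higher in the Ndrg-1 clone by 2-fold or more. Among 3432 genes between 250 and 1000, as for Mgll, 0.728% were. The 3 genes outside the group whose log2 signals in both arrays lay nearest to those of Mgll were Srgn, Ank2 and Col4a1. Srgn, the proteoglycan core protein serglycin, read 409.1 and 49.9, at a distance of 0.28 log2 units. Ank2, a membrane skeleton adaptor, read 316.6 and 68.7 at a distance of 0.83, and Col4a1, a collagen IV chain, read 462.5 and 87.1 at 0.87. This likeness rests on 2 arrays and is given as a description.

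The other droplet proteins did not differ by 2-fold at the main setting. Of 26 listed, 25 were on the array under a single symbol and 19 were measured, with 0 at least 2-fold higher or lower and a median log2 ratio of 0.05. Hilpda, an inhibitor of Pnpla2 related to G0s2, read 704.0 in the Ndrg-1 clone and 412.0 in the vector clone, a log2 ratio of 0.77. Acsl3, an acyl-CoA synthetase on nascent droplets, read 352.4 and 583.7, a log2 ratio of -0.73. These were the highest and lowest of the list. Seipin (Bscl2), which shapes forming droplets, read 356.4 and 220.4, a log2 ratio of 0.69, and Aup1, a droplet protein of protein degradation, read 511.5 and 341.8, a log2 ratio of 0.58. With the hybridisation spikes, Hilpda (1.32), Bscl2 (1.24) and Aup1 (1.13) passed 2-fold and the median of the list was 0.60. Of the CIDE genes, which fuse droplets, neither Cidea nor Cidec exceeded the floor in an array, and Cideb read 28.0 and 31.8.

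Among other lipases and lipid hydrolases, 15 of 27 listed genes were measured, with 2 lower by 2-fold or more and 0 higher by as much (median -0.03). Besides Abhd6, the lower gene was Pnpla6, a lysophospholipase of nerve and other cells, at 55.2 and 115.8, 2.10-fold lower. It fell short of 2-fold at -0.52 with the hybridisation spikes and at -0.89 with a pseudocount. The lysosomal acid lipase Lipa read 254.0 and 277.5, a log2 ratio of -0.13. Abhd3 read 34.2 in the Ndrg-1 clone and 15.6, under the floor, in the vector clone. It passed 2-fold higher, at 1.14, with the floor at the 25th percentile only.

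Triacylglycerol synthesis held 16 measured genes of 20 listed, with 0 at least 2-fold higher, 1 at least 2-fold lower and a median of -0.18. The lower gene was Lpin1, a phosphatidate phosphatase that makes diacylglycerol, at 27.6 in the Ndrg-1 clone, under the floor, and 128.6 in the vector clone, at least 4.14-fold lower. Its other probe set, above the floor in both arrays, read 38.4 and 66.9, 1.74-fold lower, and the median over both was a log2 ratio of -1.43. The list gene Mogat2 read 11.0 in the Ndrg-1 clone, under the floor, and 45.7 in the vector clone, at least 1.47-fold lower. Its ratio depended on how dim signals were treated, at -2.06 under the 25th-percentile floor and -1.19 under the pseudocount, both past 2-fold. Dgat2, which completes triacylglycerol, read 1054 and 1395, a log2 ratio of -0.40, and its other probe set read 574.9 and 878.2, a log2 ratio of -0.61. Dgat1 read 411.4 and 502.9, a log2 ratio of -0.29. The final acyltransferases were thus lower by less than 2-fold on every measured probe set, but with the hybridisation spikes Dgat1 turned to 0.25 and the brighter Dgat2 probe set to 0.14, and the acyltransferase gene Agpat5 went from 0.49 to 1.04.

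The genes of hormonal control did not reach 2-fold in either direction. Of 33 listed, 15 were measured and the median log2 ratio was -0.10. The 2 largest differences were those of the insulin signalling adaptor Irs2, which read 183.6 and 123.4 (0.57), and the fatty acid carrier Fabp5, at 2196 and 1692 (0.38). Irs2 passed 2-fold, at 1.12, with the hybridisation spikes only. The catalytic subunits of protein kinase A, which phosphorylates Plin1 and Lipe, read 196.9 and 216.5 for Prkaca and 459.0 and 536.0 for Prkacb. The catecholamine receptor genes Adrb1 and Adrb3 did not exceed the floor in either array.

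**Figure D3:**
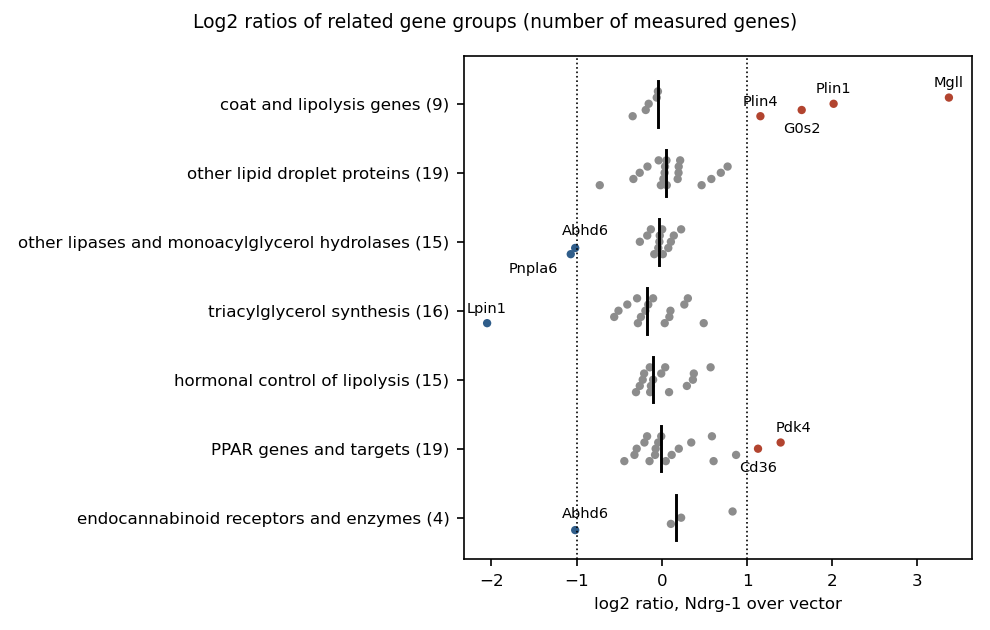
Log2 ratios of the measured genes of the group and of 6 related lists, with the number of measured genes in parentheses, a black bar at each list's median and dotted lines at 2-fold. Mgll, Plin1, G0s2 and Plin4 stand to the right of the 2-fold line, Pdk4 and Cd36 are the others that do, and Abhd6, Pnpla6 and Lpin1 stand to the left.

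Several members, among them Plin1, Plin2, Plin4, Mgll and G0s2, are described as targets of the PPAR nuclear receptors, mainly from mouse and human fat and liver cells. This naming is not complete and was made with the ratios known, so it does not set these genes apart from the other members. Of the 27 listed receptors and other targets, 19 were measured, with 2 at least 2-fold higher, 0 at least 2-fold lower and a median of -0.0064. Pdk4, the kinase that shuts off pyruvate dehydrogenase, read 141.6 and 53.8, 2.63-fold higher, and its second probe set was at 0.35 or more, with the vector signal under the floor. The median over its probe sets was 0.87. The fatty acid transporter Cd36 read 2125 and 971.2, 2.19-fold higher, with a ratio of 0.92 when scaled to the poly-A spikes. Angptl4, an inhibitor of lipoprotein lipase, read 56.8 against 13.8, at least 1.83-fold higher with the vector signal under the floor. It passed 2-fold with the floor at the 25th percentile (2.04), with a pseudocount (1.29) and with the hybridisation spikes (1.13). The receptor genes measured at the main setting were lower by less than 2-fold or close to equal. The receptor gene Rxra was under the floor in both arrays there. With the floor at the 25th percentile it was at -1.54, past 2-fold lower, and the target Fabp3 was at 1.08. Pparg read 454.2 and 557.0, a log2 ratio of -0.29, and Ppard read 81.8 and 85.9, a log2 ratio of -0.07. Oxidation enzymes among the targets were also under 2-fold, such as Acadl at 909.7 and 1234 (-0.44) and Cpt1a at 586.5 and 647.9 (-0.14). With the hybridisation spikes 5 of 21 measured genes of the list were at least 2-fold higher, and the median was 0.50. The added ones were Angptl4, the carnitine carrier gene Slc25a20 and the thioesterase gene Acot2. At that setting 732 of 9293 measured genes on the array were at least 2-fold higher, against 1.62% at the main setting.

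Markers of other cells and of the tissue were checked because Plin1 and Plin4 are typical of fat cells. Of 11 adipocyte markers on the array, 4 were measured and 7 were under the floor in both arrays, among the latter the secreted adipokines Adipoq and Lep and the droplet protein Cidec. The 4 were the fatty acid carrier Fabp4 at 3558 and 4388, Pparg, the transcription factor Cebpa at 555.9 and 565.7, and the glucose transporter Slc2a4 at 44.3 and 40.5. Their log2 ratios ran from -0.30 to 0.13, and the summed signal of the 11 was 4699 in the Ndrg-1 clone and 5616 in the vector clone. With the floor at the 25th percentile 8 were measured, and Cidec and Cfd, a secreted protease, were then at least 2-fold higher, the highest ratio being 1.29 for Cidec. Their part in the result was not tested beyond these values. Of 10 prostate epithelial markers on the array, 8 were under the floor in both arrays, including Cdh1, Epcam and Krt18, and Krt8 read 38.7 and 46.4. Apart from Krt8 and, in the Ndrg-1 clone, Tmprss2 (35.4), defining epithelial markers of the tissue of origin were thus not above the floor. Of 11 macrophage and leukocyte markers, 8 were under the floor in both arrays, Ptprc and Adgre1 among them. The other 3 did not move together. Cd68, a lysosomal protein, read 205.5 and 114.4 (0.85, and 1.39 with the hybridisation spikes), the lipopolysaccharide co-receptor Cd14 read 209.9 and 309.2 (-0.56), and the growth factor receptor Csf1r read 15.7 and 33.4, with the first under the floor (-0.11).

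The transfected gene did not separate the arrays by 2-fold. The brighter probe set of Ndrg1 read 1353 in the Ndrg-1 clone and 1066 in the vector clone, a log2 ratio of 0.34, and the dimmer read 153.7 and 181.6, a log2 ratio of -0.24. Under the alternatives the ratio of the gene ran from 0.05, as the median over its probe sets, to 0.89, with the hybridisation spikes. Whether these probe sets read the transcript of the insert was not tested. The arrays are therefore called by their labels, and each direction above is that of the array labelled Ndrg-1. The deposited arrays had near equal medians of 31.1 and 31.2.

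**Figure D4:**
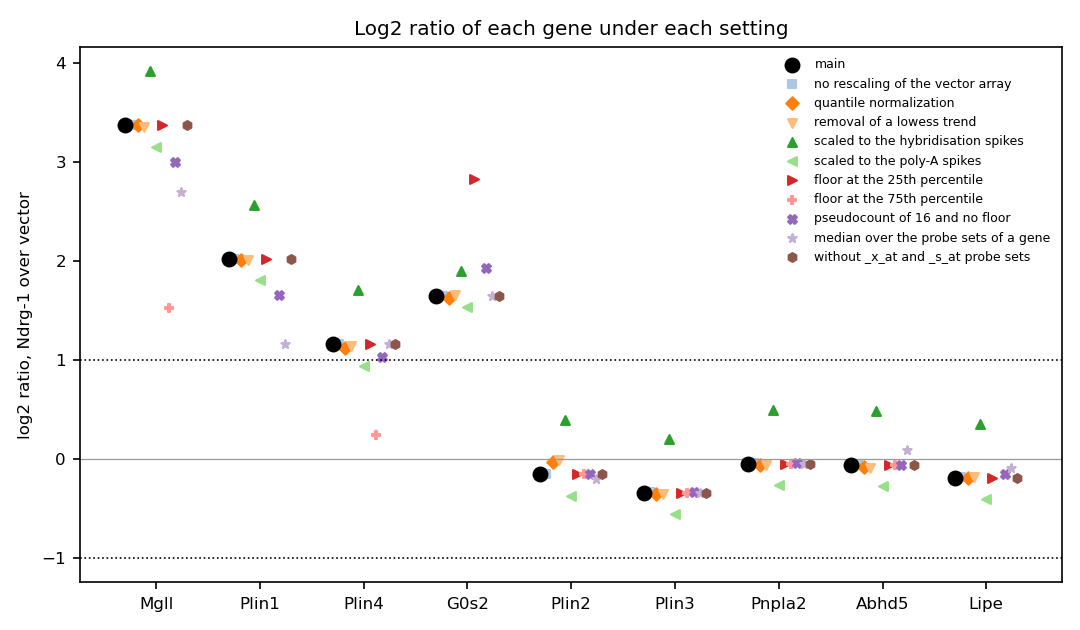
Log2 ratio of each of the 9 genes under the main setting (large black circles) and 10 alternatives, with dotted lines at 2-fold. Mgll, Plin1 and G0s2 lie above 2-fold under every setting that measured them, Plin4 in 8 of 10 alternatives, and the other 5 genes lie between the lines throughout.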

How the data were processed

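Probe set signals of 2 Affymetrix arrays were analysed. The deposited values are intensities on a linear scale, made by the authors with GCOS 1.3 per the submitters' processing notes, and no summary method or scaling setting was given. The trimmed mean (2% of probe sets dropped at each end) was 150.0 in both arrays, which shows a scaling to one level before deposit. No detection calls were used, and the number of arrays limits the precision.

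Of 31042 non-control probe sets, 20826 had 1 gene symbol, 436 several and 9780 none in the platform annotation, and 20758 matched RefSeq (GRCr8) by gene ID. Vector signals were multiplied by 1.0034 so that the median log2 ratio of the brighter probe sets was 0. The floor replaced any lower signal on the log2 scale. A difference counted at 2-fold. The members and lists were chosen with earlier results of these data known. Named genes were all members, up to 4 list genes per direction past 2-fold, or else the 2 largest differences. Every other list gene in the text was named after its values were seen. The procedure was run on simulated data, with changes above 2-fold put into genes brighter than the median and noise near the SD between probe sets. Variation between clones, cultures and arrays was not simulated, so the run says nothing about it or about dim genes. Alternatives were 5 scalings, 3 floor settings and 2 choices of probe set. Tools were pandas 2.3.3, numpy 2.4.6 and statsmodels 0.14.6 in Python 3.11.15.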

Additional observations from a re-analysis of the deposited data

How the results depend on the processing

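Mgll (log2 ratio 1.53 to 3.92) was higher in the Ndrg-1 clone by 2-fold or more under all 10 alternatives, and Plin1 (1.16 to 2.56) and G0s2 (1.53 to 2.82) under the 9 that measured them. Plin4 was so in 8 of 10. None of the other 5 members reached 2-fold. Not every alternative could change these values. No member probe set has the suffix _x_at or _s_at, so leaving such probe sets out kept every member ratio as it was. Omitting the factor of 1.0034 moved ratios by at most 0.0048. The floor at the 25th percentile changed only G0s2 among the members. With the floor at the 75th percentile only 6 members were measured and 1, Mgll, was at least 2-fold higher. With the poly-A spikes 3 were, without Plin4. Scaling to the hybridisation spikes moved the ratios of genes above the floor in both arrays by 0.54, that of G0s2 only from 1.64 to 1.90, the members' median to 0.50, and the count over all genes from 287 (149 higher, 138 lower) to 775 (732 and 43). Scaling to the poly-A spikes moved such ratios by -0.21, G0s2 to 1.53, and gave 240 lower and 101 higher genes. The floor at the 25th percentile gave 907 genes (444 higher, 463 lower) and that at the 75th gave 57 (23 and 34). The floor sets both which genes are measured and how far a ratio can go. Of 87 ratios of members under alternatives, 70 moved by less than the SD between probe sets and 0 of those past 2-fold changed sign. The 70 include the ratios that could not change. No paired analysis was possible because each group has 1 array. Vector signals near or under the floor limit the sizes for Mgll, Plin1 and G0s2, and Lipe was dim in both arrays.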

Other observations

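The chromosomal neighbours of the members were compared with them, as a description added after the members' values were seen. For each member, up to 5 measured genes on either side in the RefSeq annotation of GRCr8 were taken. None of the neighbours of Mgll, Plin1, Plin4 or G0s2 was higher by 2-fold or more in the Ndrg-1 clone, although with the hybridisation spikes 1 neighbour of Plin1 and 1 of G0s2 were. The 10 neighbours of Mgll on chromosome 4, among them the replication helicase gene Mcm2 and the late endosomal GTPase gene Rab7a, had log2 ratios from -0.43 to 0.38 with a median of -0.07. Those of Plin1 on chromosome 1 ranged from -0.38 to 0.97 with a median of -0.04, and the 8 of G0s2 on chromosome 13 from -0.81 to 0.63 with a median of -0.11.

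All neighbours of Plin4 lay below Plin4 itself, while Lipe lay within the range of its neighbours, near its lower end. The signs of the ratios depended on the scaling. All 10 neighbours of Plin4 on chromosome 9 had ratios below 0, with a median of -0.42 and 1 of them at least 2-fold lower, while Plin4 was at 1.16. With the hybridisation spikes 6 of the 10 were above 0, with a median of 0.13, and Plin4 was at 1.70. Of the 10 neighbours of Lipe on chromosome 1, 9 had ratios above 0, with a median of 0.47 and a range of -0.23 to 0.93, while Lipe was at -0.19, within 1 SD of 0. With the hybridisation spikes Lipe (0.36) and all 10 neighbours (median 1.01) were above 0, so the difference in sign was lost. They include the cytokine gene Tgfb1 and the kinase gene Gsk3a.

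In the endocannabinoid list, 4 of 10 genes on the array were measured, with 0 at least 2-fold higher and 1, Abhd6 (-1.02, described above), at least 2-fold lower. Abhd12 was at 0.23. Plcb4, a phospholipase C, read 260.6 in the Ndrg-1 clone and 146.5 in the vector clone, a log2 ratio of 0.83 (1.38 with the hybridisation spikes). As the median over its probe sets it was at 0.42, where a probe set under the floor in both arrays counts as 0. With the floor at the 75th percentile it was at least 0.60. Daglb, which makes 2-arachidonoylglycerol, the lipid that Mgll breaks down, read 167.0 and 155.1, a log2 ratio of 0.11. The cannabinoid receptor genes Cnr1 and Cnr2 were under the floor in both arrays.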
